A study of Homo sapiens with 30 samples.

Results

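The comparison set 2 single knockout lines of the ATG8 family side by side, the GABARAPL1 knockout and the GABARAPL2 knockout. The rule took the 3 libraries labelled as the GABARAPL1 single knockout and the 3 labelled as the GABARAPL2 single knockout, 6 of 30 libraries in all, and used no measured value. Every knockout line of the series was made by CRISPR in HEK28, a HEK293 derivative (human embryonic kidney cells) that secretes coagulation factor VIII, the product of F8. The stated purpose was to learn how single knockouts affect factor VIII secretion or activity. The 6 other knockout lines lacked CANX, CALR, LMAN1, MCFD2, GABARAP or ATG7, and unedited HEK28 and parental HEK cells completed the 10 groups of 3. No group was treated, and the cells were grown in 6-well plates to about 70% confluency before 3' RNA sequencing. Each knockout is represented by 1 line, so the edited gene and any other difference between 1 line and the next cannot be told apart. The p-values measure the spread between libraries of the same group, estimated over all 10 groups. The labels do not say whether the 3 libraries of a line came from separate cultures, so this spread may be technical.

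ATG8 proteins are small ubiquitin-like proteins that are joined to the lipid phosphatidylethanolamine on growing autophagosome membranes. They fall into an LC3 branch and a GABARAP branch, and the GABARAP branch (GABARAP, GABARAPL1 and GABARAPL2, the last also known as GATE-16) is known for late steps of autophagosome maturation and for binding autophagy receptors. ATG7 is the E1-like enzyme that activates all of them before conjugation.

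Reads recovered from the deposited values numbered 1077019, 440739 and 1210173 in the GABARAPL1 knockout libraries and 4022088, 1388836 and 727611 in the GABARAPL2 knockout libraries, against a range of 154052 to 4022088 over the series. Log2 values correlated at 0.959 to 0.987 between libraries of the same line and at 0.933 to 0.964 between the lines, across genes. On the first principal component HEK28 replicates 1 and 2 (86.11 and 97.28) stood apart from replicate 3 (-14.21). LMAN1 knockout replicate 2 (36.47) stood apart from its group (-22.24 and -26.59), though the parental HEK libraries lay at 43.17, 27.76 and 43.27. The 3 libraries that stood apart from their groups enter the shared estimate of the spread, the means of their groups and the ranges of the other libraries. The LMAN1 library also enters the mean of the other knockouts. Within the pair, GABARAPL1 knockout replicate 2 lay at 11.04 on that component, against -12.69 and -13.45 for replicates 1 and 3. It had the fewest reads of the 6 libraries and correlated at 0.959 with both. The values used are the deposited log2 values, which are per gene length and per library size. Reads from the 3' end need not scale with gene length, so levels are compared between libraries and not between genes. Differences are GABARAPL1 knockout minus GABARAPL2 knockout on the log2 scale with their standard error (SE), and n = 3 libraries a line throughout. A gene was called at a Benjamini-Hochberg adjusted p below 0.05 in limma, fitted to 11295 genes over all 30 libraries.

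The mRNA of the targeted genes was measured first. GABARAPL1 mRNA stood at 1.16, 0.57 and 1.34 in the 3 GABARAPL1 knockout libraries and at 1.45, 1.40 and 1.49 in the GABARAPL2 knockout libraries. The groups did not overlap, but the difference of -0.43 ± 0.40 (SE) was not called (limma, adjusted p = 0.697). By group means, GABARAPL1 mRNA was lowest in its own knockout (1.02 ± 0.40, SD, n = 3) and next lowest in the GABARAPL2 knockout (1.45 ± 0.04), and highest in the CALR knockout (3.05 ± 0.14). The neighbours in that order from the GABARAPL1 knockout through the GABARAPL2 knockout and HEK28 to the LMAN1 knockout (1.56 ± 0.50) lay within about 1 SD of each other.

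GABARAPL2 mRNA stood at 7.16, 6.76 and 7.25 in the GABARAPL1 knockout and at 6.67, 6.40 and 5.77 in the GABARAPL2 knockout. Every library of the GABARAPL2 knockout was below every library of the GABARAPL1 knockout, and the difference of 0.78 ± 0.48 was not called (adjusted p = 0.512). Only HEK28 (5.94 ± 1.62) had a lower mean than the GABARAPL2 knockout (6.28 ± 0.46), and these means differed by less than the SD of HEK28. Against the mean of the 6 other knockouts, GABARAPL1 mRNA in its own knockout differed by -1.33 (adjusted p = 0.0616) and GABARAPL2 mRNA in its own knockout by -0.72 (adjusted p = 0.304). A 3' read lies away from most edited sites, and the edited positions were not among the descriptions used, so these levels do not check the knockouts.

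The lists of ATG8, autophagy and lysosome genes held no called gene. Over all genes tested 1.63% were called, so 0 calls in lists of this size is near that share. MAP1LC3B, the LC3 family member most used as an autophagosome marker, differed by -0.43 ± 0.46 and GABARAP by -0.06 ± 0.46, with overlapping libraries for both and a sign for GABARAP that turned under quantile normalization (0.03) and median centring (0.01). Among the 4 ATG8 genes that passed the filter on low values, 0 of 4 were called, with a median difference of -0.243 against -0.0394 over all genes tested. Of 31 genes for ATG8 conjugation and autophagosome formation, 20 autophagy and mitophagy receptors and 28 lysosomal genes, 0 were called in either direction, with medians of 0.038, -0.0777 and -0.165. ATG7 differed by 0.27 ± 0.56, and ATG3, the E2-like enzyme for ATG8 lipidation, by -1.04 ± 0.37 (adjusted p = 0.189).

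F8 mRNA was measured at 9.48, 9.47 and 9.42 in the GABARAPL1 knockout and at 8.86, 8.75 and 8.82 in the GABARAPL2 knockout. The libraries of each line lay within 0.2 of each other and the groups were well apart, with a difference of 0.65 ± 0.22 that was not called over all genes (adjusted p = 0.159). The call depended on the fit: with only the 6 libraries of these lines F8 was called (adjusted p = 0.0141). Among the groups derived from HEK28, only the CALR knockout had a higher mean (9.81 ± 0.11) than the GABARAPL1 knockout (9.46 ± 0.03), and the GABARAPL2 knockout (8.81 ± 0.06) ranked just below the ATG7 knockout (8.85 ± 0.05), from which it differed by less than 1 SD. Unedited HEK28 stood at 8.35, 8.01 and 8.49, below every library of both lines, though its replicates 1 and 2 stood apart as described above. Parental HEK cells stood at 0.09 ± 0.76.

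**Figure D1:**
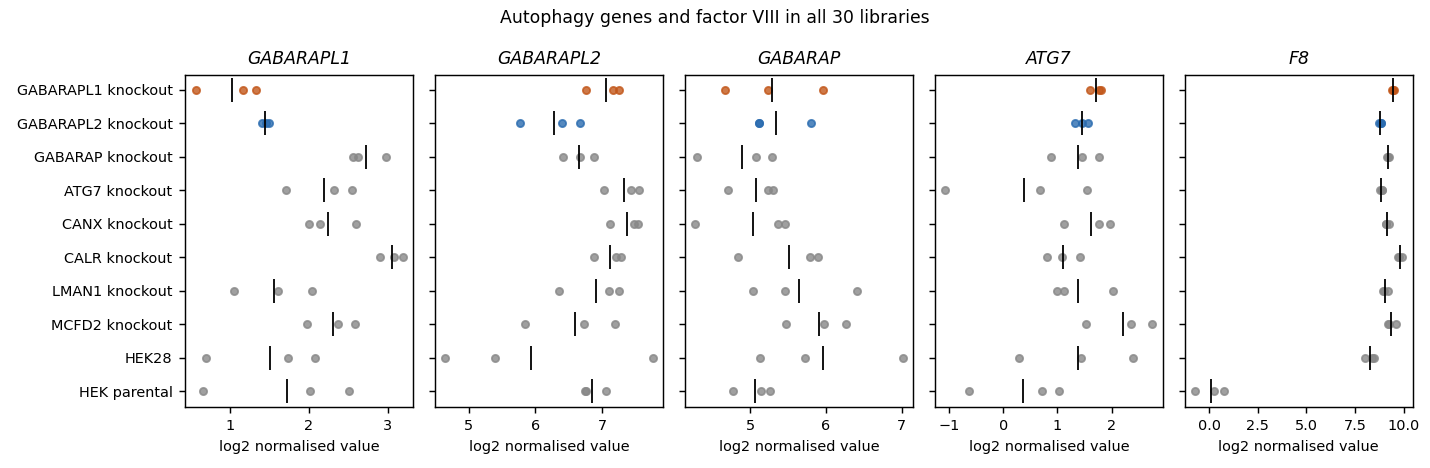
Normalised log2 values of the 3 GABARAP family genes, ATG7 and F8 (horizontal axes) in each of the 30 libraries (points), by group (rows), with the group mean as a bar. GABARAPL1 mRNA is lowest in its own knockout (1.02) and F8 is near 0 only in parental HEK cells (0.09), while F8 in the GABARAPL1 knockout lies above F8 in the GABARAPL2 knockout in all 3 libraries.

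The direct comparison of the lines called 184 of 11295 genes, or 1.63% of those tested. Higher in the GABARAPL1 knockout were 77 genes (0.682%) and lower were 107 (0.947%). The higher genes had a median difference of 0.934 and the lower genes were further apart, with a median size of 1.61. Of the 184 genes, 119 differed at least 2-fold, 34 higher and 85 lower, and 156 were protein coding. In bulk RNA, fewer cells of a type and less RNA per cell cannot be told apart. The split by direction followed the scaling: quantile normalization called 253 genes, 138 higher and 115 lower, and median centring called 193, 100 higher and 93 lower. Leaving out 1 library called between 47 and 105 genes: 90, 54 and 105 without GABARAPL1 knockout replicates 1, 2 and 3, and 51, 47 and 56 without GABARAPL2 knockout replicates 1, 2 and 3.

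Each line was also set against the mean of the 6 other knockouts, which the 2 comparisons share. The GABARAPL1 knockout differed from that mean at 36 genes (0.319%), 13 higher (0.115%) and 23 lower (0.204%). The GABARAPL2 knockout differed at 476 (4.21%), 301 higher (2.66%) and 175 lower (1.55%). The values from both are given beside the genes below.

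**Figure D2:**
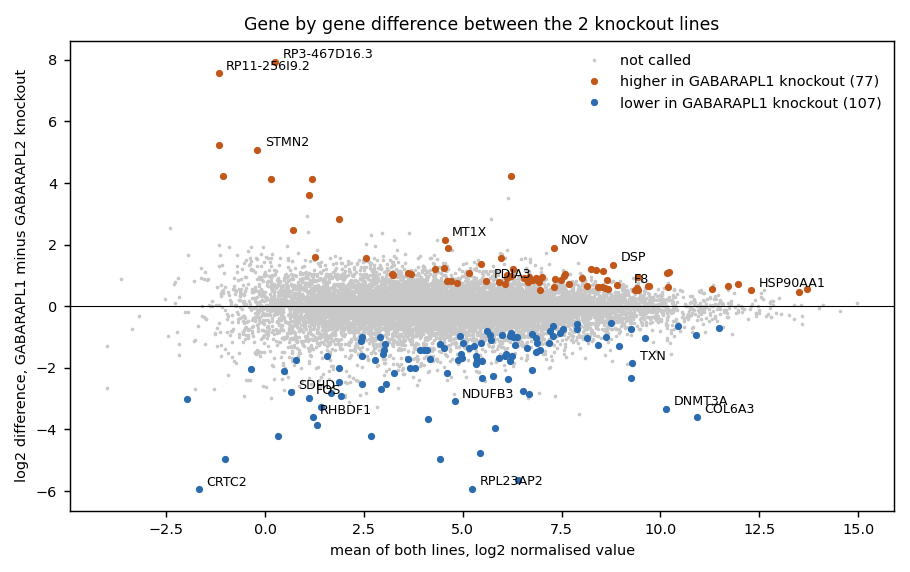
Log2 difference between the lines (vertical axis, GABARAPL1 minus GABARAPL2 knockout) against the mean log2 value of both lines (horizontal axis) for the 11295 genes tested, each point a gene. The 77 genes called higher and the 107 called lower are coloured, and the largest differences lie at low mean values in both directions.

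Of the 12 genes with the largest higher values 8 were noncoding transcripts, some at or near 0 reads in the GABARAPL2 knockout. RP3-467D16.3, an antisense transcript on chromosome 6 (16259101 to 16264553, hg38) that overlaps GMPR, had 199, 58 and 226 reads in the GABARAPL1 knockout and 4, 0 and 0 in the GABARAPL2 knockout. It was 7.93 ± 0.67 higher (adjusted p = 1.99e-07). The noncoding RP11-256I9.2 on chromosome 16 (65190973 to 65234914) had 83, 14 and 113 reads against 0 in each GABARAPL2 library, at least 158-fold higher when 3 reads are allowed over that line. Both transcripts lay inside the range of the other 24 libraries in the GABARAPL1 knockout. RP3-467D16.3 differed by 3.44 in the GABARAPL1 knockout and by -4.49 in the GABARAPL2 knockout when each was set against the 6 other knockouts (adjusted p = 0.00111 and 2.27e-05). RP11-256I9.2 differed by 3.58 and -3.99 in the same comparisons (adjusted p = 0.00165 and 0.000106).

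The other noncoding transcripts of that group were RP11-69I8.2 (5.22 ± 0.83), ESRG (4.24 ± 0.98), a lincRNA on chromosome 3 at 109176438 to 109177365 (4.22 ± 0.79), RP11-181K12.1 (4.13 ± 0.74), RP11-54H7.4 (4.13 ± 0.88) and SLC44A3-AS1 (2.82 ± 0.55). The lincRNA on chromosome 3 had 28 reads in the GABARAPL1 knockout and 2 in the GABARAPL2 knockout, a rate ratio of 31.5 with an exact 95% counting interval of 7.94 to 273. RP11-54H7.4 had 52 and 3 reads, a rate ratio of 39.0 (12.6 to 195). Such intervals, and the 3 reads allowed for a count of 0, cover counting error only. Whether the authors' counting used strand is not stated in the labels, so reads of ESRG and of SLC44A3-AS1 cannot be told apart from those of CACNA2D3 and SLC44A3, which they overlap. In the 6 fits that each leave out 1 of the 6 libraries, ESRG was called in 1 (adjusted p up to 0.165), RP11-54H7.4 in 1 (0.0808) and SLC44A3-AS1 in 3 (0.07), and the 5 other noncoding transcripts in all 6.

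The 4 protein-coding genes STMN2, NOV, MT1X and SCIN completed the 12. STMN2, a neuronal microtubule-destabilising protein, had 8, 6 and 14 reads in the GABARAPL1 knockout and 0 in each GABARAPL2 library. It was at least 21.0-fold higher, with a fitted difference of 5.09 ± 0.86 (adjusted p = 0.00221). NOV, also called CCN3, a secreted matricellular protein, stood at 8.45, 8.12 and 8.16 against 6.29, 6.59 and 6.17. All 3 GABARAPL1 libraries were above the highest of the other 24 libraries (7.93), and NOV was the only one of the 12 for which this held. The difference was 1.90 ± 0.24 (adjusted p = 8.09e-05). Against the 6 other knockouts NOV was 1.78 higher in the GABARAPL1 knockout (adjusted p = 5.34e-06) and differed by -0.12 in the GABARAPL2 knockout (adjusted p = 0.799). SCIN, an actin-severing protein, was 1.88 ± 0.48 higher (adjusted p = 0.0455), and was called in 0 of the 6 fits without 1 library (adjusted p up to 0.218) and not with chromosome centring (2.01, adjusted p = 0.0569). STMN2, NOV and MT1X were called in all 6.

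MT1X, a metallothionein that binds zinc and copper, stood at 5.49, 5.97 and 5.44 in the GABARAPL1 knockout and at 3.79, 3.48 and 3.13 in the GABARAPL2 knockout. The GABARAPL2 libraries were the low ones, below all other 24 libraries, whose lowest was 3.91. MT1X differed by 2.16 ± 0.30 (adjusted p = 0.00027). Against the 6 other knockouts it differed by -1.89 in the GABARAPL2 knockout (adjusted p = 3.34e-05) and by 0.28 in the GABARAPL1 knockout (adjusted p = 0.892). MT2A, the other metallothionein that passed the filter, chosen after its values were seen, stood at 7.23, 7.21 and 7.38 against 6.48, 6.83 and 6.30. Its groups did not overlap either, and its difference of 0.74 ± 0.23 was not called (adjusted p = 0.11). Metallothionein genes are known to be induced by metal ions through the metal-responsive factor MTF1, which binds metal response elements in their promoters. The 250 bases before each RefSeq start (GRCh38.p14, plus strand) are shown because MT1X was called and lay below all other libraries in the GABARAPL2 knockout, with matches to the metal response element core TGCACNC or TGCGCNC on either strand in capitals. MT1X lies at chr16:56682220-56682469 and MT2A at chr16:56608334-56608583.
MT1X: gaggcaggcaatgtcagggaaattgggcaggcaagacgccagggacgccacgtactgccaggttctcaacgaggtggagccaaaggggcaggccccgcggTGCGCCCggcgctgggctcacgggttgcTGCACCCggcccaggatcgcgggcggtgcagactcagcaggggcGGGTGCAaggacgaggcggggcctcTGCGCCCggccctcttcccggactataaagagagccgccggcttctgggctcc
MT2A: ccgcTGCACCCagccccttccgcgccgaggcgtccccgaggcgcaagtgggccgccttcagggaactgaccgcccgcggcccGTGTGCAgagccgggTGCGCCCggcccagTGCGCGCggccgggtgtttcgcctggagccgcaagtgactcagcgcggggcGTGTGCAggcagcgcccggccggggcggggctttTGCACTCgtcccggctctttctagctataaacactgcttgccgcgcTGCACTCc
The MT1X window held 4 matches and the MT2A window 7. Of 34943 windows of 250 bases before RefSeq starts, 24.8% held at least 1 match and 1.58% at least 3. A match describes the letters and shows no binding.

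The 12 genes with the largest lower values gave another picture: for 11 of the 12, all 3 GABARAPL2 libraries were above all 24 libraries outside the pair. This is a description of genes taken for the size of their difference, and a gene near 0 reads elsewhere passed the filter on low values only through the line where it was high. CRTC2, a coactivator of the transcription factor CREB on chromosome 1 (153947669 to 153958625), had 1, 0 and 0 reads in the GABARAPL1 knockout and 181, 82 and 35 in the GABARAPL2 knockout. The read rate was 132 times as high in the GABARAPL2 knockout (exact 95% interval 23.6 to 5250). CRTC2 was 5.09 higher in the GABARAPL2 knockout than in the 6 other knockouts (adjusted p = 0.000153) and differed by -0.85 in the GABARAPL1 knockout (adjusted p = 0.9). RPL23AP2, a processed pseudogene of the ribosomal protein gene RPL23A, had 0 reads in each GABARAPL1 library and 160, 58 and 18 in the GABARAPL2 knockout, at least 35.0-fold lower. Its reads may be shared with the parent gene, which differed by -0.56 ± 0.19 (adjusted p = 0.133). EEF1A1P25, a pseudogene of the elongation factor gene EEF1A1 inside PIK3CB, had 1 read against 190 (rate ratio 84.4, 15.0 to 3350) and carries the same uncertainty.

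The protein-coding members of these 12 also included HIBADH, a mitochondrial enzyme of valine breakdown, DTX3, a ubiquitin ligase, THOC3, a subunit of the THO mRNA export complex, and KLHL15, a substrate adaptor of a cullin ubiquitin ligase. HIBADH had 2, 0 and 0 reads against 73, 24 and 13 (rate ratio 24.4, 6.61 to 204). DTX3 had 3 reads against 122 (18.1, 6.04 to 88.8). THOC3 differed by -3.85 ± 0.68 and KLHL15 by -4.23 ± 0.88. The noncoding RP11-977G19.5 (2 reads against 298), RP11-1112J20.2 (-4.97 ± 0.89), AC009501.4 (-4.77 ± 0.93) and RP11-423H2.1 (-3.65 ± 0.69) behaved the same way, and RP11-977G19.5 and AC009501.4 overlap coding genes. Of the 6 fits without 1 library, DTX3 was called in 0 (adjusted p up to 0.144), KLHL15 in 2 (up to 0.126), and AC009501.4 in all but that without GABARAPL1 knockout replicate 2 (0.0764).

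RHBDF1, an inactive rhomboid protein that takes part in growth factor release, was the exception. It had 0 reads in each GABARAPL1 library and 15, 9 and 9 in the GABARAPL2 knockout, at least 4.89-fold lower. Here the GABARAPL1 libraries were the low ones, below the lowest of the other 24 libraries. Against the 6 other knockouts RHBDF1 differed by -4.17 in the GABARAPL1 knockout (adjusted p = 9.34e-05) and by -0.56 in the GABARAPL2 knockout (adjusted p = 0.612). Its call was lost only without GABARAPL2 knockout replicate 3 (adjusted p = 0.0521).

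**Figure D3:**
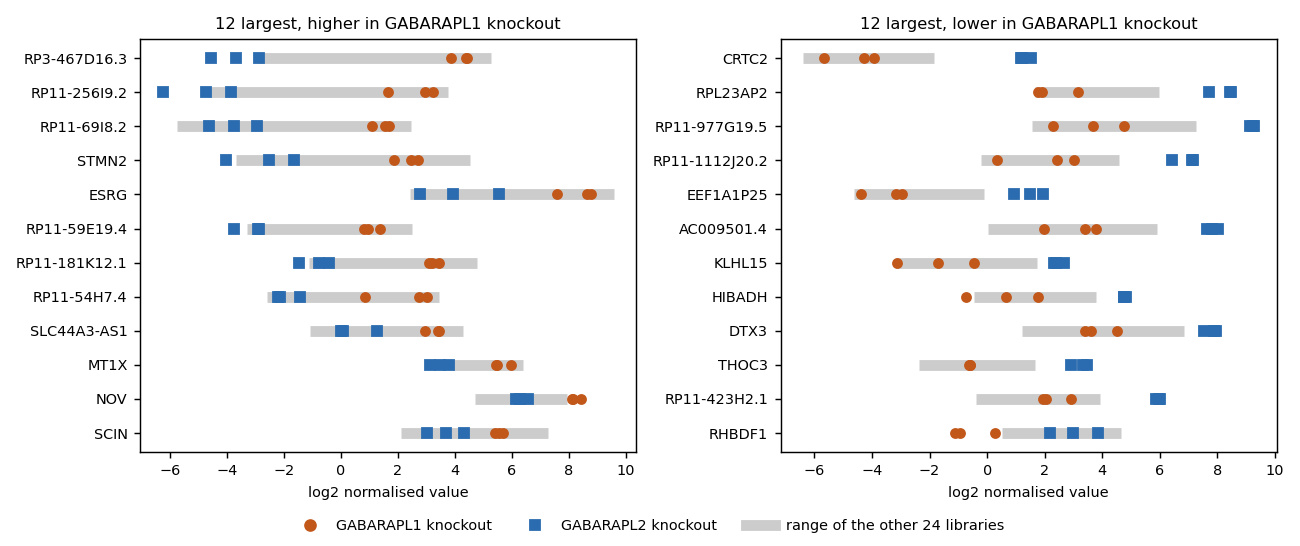
Normalised log2 values (horizontal axis) of the 12 genes with the largest higher and the 12 with the largest lower differences (rows) in the 3 GABARAPL1 (circles) and 3 GABARAPL2 (squares) knockout libraries, with a grey bar for the range of the other 24 libraries. The GABARAPL2 libraries lie above the grey bar for 11 of the 12 lower genes, and the GABARAPL1 libraries lie above it for NOV and below it for RHBDF1.

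Further genes were lower in the GABARAPL1 knockout. Those named in this paragraph and the next, apart from MARCKSL1 and RABGGTB, were chosen after their values were seen. COL6A3, a collagen VI chain, stood at 9.42, 8.91 and 9.06 in the GABARAPL1 knockout and at 12.48, 12.68 and 13.02 in the GABARAPL2 knockout. The GABARAPL2 libraries were above all of the other 24 (highest 10.70), and the difference was -3.60 ± 0.73 (adjusted p = 0.0115). DNMT3A, a de novo DNA methyltransferase, stood at 8.85, 8.09 and 8.49 against 11.65, 11.79 and 12.02. Its GABARAPL2 libraries again exceeded the other 24 (highest 10.07), with a difference of -3.34 ± 0.48 (adjusted p = 0.000442). SP100, a component of PML nuclear bodies, differed by -2.76 ± 0.57 (adjusted p = 0.0115) in the same pattern. Against the 6 other knockouts, COL6A3 was 3.90, DNMT3A 3.14 and SP100 3.08 higher in the GABARAPL2 knockout, and they differed by 0.30, -0.20 and 0.32 in the GABARAPL1 knockout. DNMT3A was called in all 6 fits without 1 library, and COL6A3 and SP100 in 3 each, being lost without GABARAPL1 knockout replicate 2 or GABARAPL2 knockout replicate 2 or 3 (adjusted p up to 0.0654 and 0.0847).

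HMGB2, a chromatin protein, differed by -1.41 ± 0.22 and the filament protein VIM by -0.74 ± 0.17, the latter called neither in the 6 fits without 1 library (adjusted p up to 0.138) nor with chromosome centring (0.15). MARCKSL1, an actin-binding membrane protein, differed by -2.32 ± 0.43, MSX2, a homeobox factor, by -2.08 ± 0.38, and RABGGTB, a subunit of the enzyme that prenylates Rab proteins, by -2.80 ± 0.52. CRABP2, which carries retinoic acid, differed by -3.26 ± 0.63, a call lost without GABARAPL1 knockout replicate 2 or GABARAPL2 knockout replicate 3 (adjusted p up to 0.0794). The near-identical copies SMN1 and SMN2 differed by -1.74 ± 0.40 and -1.73 ± 0.41. Counting could have split reads between them, so each value is uncertain, and they were called in 1 and 0 of the 6 fits and in neither case with chromosome centring (adjusted p = 0.0957 and 0.102).

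Mitochondrial respiration lists had lower medians than all genes, with few calls. Over all genes 0.947% were called lower and 0.682% higher. In complex I, which passes electrons from NADH to ubiquinone, 2 of 38 genes fell and 0 rose, with a median of -0.154. In complexes III and IV and ATP synthase 1 of 35 fell and 0 rose, with a median of -0.211 against -0.0394 over all genes. The libraries did not overlap, with the GABARAPL1 knockout lower, for 18 of 38 (47.4%) and 15 of 35 (42.9%), against 19.2% of all genes. The medians against the 6 other knockouts were 0.0547 and 0.0807 in the GABARAPL1 knockout and 0.225 and 0.319 in the GABARAPL2 knockout, against 0.0381 and 0.0605 over all genes. The signs of both medians held under quantile normalization (-0.0719 and -0.136), median centring (-0.0812 and -0.138) and centring per chromosome (-0.0857 and -0.196).

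NDUFB3, an accessory subunit of complex I, stood at 3.59, 2.43 and 3.76 against 6.28, 6.61 and 6.15. The GABARAPL2 libraries exceeded all other 24 (highest 4.67), and the difference was -3.09 ± 0.76 (adjusted p = 0.0388). NDUFB4, another accessory subunit, differed by -0.86 ± 0.22 (adjusted p = 0.0463) and UQCRH, the hinge protein of complex III, by -0.58 ± 0.15 (adjusted p = 0.0464). SDHD, the membrane anchor of succinate dehydrogenase, was the 1 called gene of 22 in the tricarboxylic acid cycle list, against 0.947% of all genes called lower. SDHD stood at -0.60, -1.44 and -0.19 against 1.51, 2.29 and 2.34, a difference of -2.79 ± 0.57 (adjusted p = 0.0115). NDUFB3, NDUFB4 and UQCRH were called in 0 of the 6 fits without 1 library and SDHD in 3, with adjusted p up to 0.215, 0.152, 0.236 and 0.095. With each library centred per chromosome the differences were -2.96, -0.76, -0.28 and -2.71, and only SDHD was called (adjusted p = 0.0524, 0.0786, 0.496 and 0.0147). Of 29 genes for mitochondrial biogenesis and energy sensing and 21 glycolysis genes, 0 were called, against 1.63% of all genes. Their medians were -0.046 and -0.234.

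Redox and sterol genes each gave 1 call, lower in both cases, against 0.947% of all genes called lower. TXN, thioredoxin, a small protein that reduces disulfides, stood at 8.52, 8.21 and 8.36 against 10.30, 10.31 and 10.05. All GABARAPL2 libraries exceeded the other 24 (highest 9.44), and the difference of -1.86 ± 0.30 (adjusted p = 0.0012) was called in all 6 fits without 1 library. TXN was the only called gene of 14 NRF2 targets, whose median was -0.245. In cholesterol synthesis 1 of 22 genes fell, PMVK (phosphomevalonate kinase, -1.03 ± 0.23, adjusted p = 0.0232), and 0 rose. The cholesterol list had the lowest median of the 28 lists, -0.519. Its libraries did not overlap and were lower for 9 of 22 genes (40.9%, against 19.2% of all genes) and higher for 2 (against 14.5%). FDFT1, squalene synthase, differed by -0.63 ± 0.18 (adjusted p = 0.071). PMVK was called in 1 of the 6 fits without 1 library (adjusted p up to 0.0945), and it was not called with chromosome centring (-0.72, adjusted p = 0.133).

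The immediate early genes, which respond within minutes to growth factors and stress, had calls in both directions. FOS had 1 read in the GABARAPL1 knockout and 33 in the GABARAPL2 knockout, a rate ratio of 14.7 (2.46 to 597), and its difference was -2.98 ± 0.61 (adjusted p = 0.0115). JUN, its partner in the AP-1 factor, stood at 11.12, 10.98 and 11.27 against 11.86, 11.84 and 11.84. The difference of -0.72 ± 0.15 was called (adjusted p = 0.0156), and the GABARAPL2 libraries were above the other 24 (highest 11.49). IER3, a stress-responsive survival gene, was 1.57 ± 0.34 higher (adjusted p = 0.0172), from 2.93, 3.47 and 3.65 against 1.93, 1.37 and 2.03. In all, 2 of 16 were called lower and 1 higher, against 0.947% and 0.682% of all genes. The median was -0.362, with 13 of 16 genes lower and 3 higher, against 53.4% of all genes lower. Non-overlapping libraries were lower for 6 (37.5%, against 19.2% of all genes) and higher for 2 (against 14.5%). Of the 6 fits without 1 library, FOS was called in 3 (adjusted p up to 0.0749), JUN in 1 (0.113) and IER3 in 2 (0.123). JUN lies on chromosome 1 and IER3 on chromosome 6, which were shifted as a whole. With each library centred per chromosome JUN differed by -0.42 (adjusted p = 0.178) and IER3 by 1.28 (adjusted p = 0.13), and FOS was called. With a pseudocount of 2 reads FOS was not called.

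In the lists of heat shock chaperones, proteasome and ER chaperones the called genes were higher in the GABARAPL1 knockout, against 0.682% of all genes called higher. Of 19 heat shock chaperones 2 rose and 0 fell: HSP90AB1 (0.63 ± 0.12, adjusted p = 0.0057) and HSP90AA1 (0.52 ± 0.11, adjusted p = 0.0148), the cytosolic HSP90 chaperones. HSP90AB1 stood at 8.83, 8.83 and 8.84 against 8.27, 8.17 and 8.16, without overlap. The median of that list was -0.0932, opposite in sign to its calls, and 8 of its 19 genes had non-overlapping lower libraries (42.1%, against 19.2% of all genes). Of 31 proteasome genes 2 rose, PSMB5 (0.58 ± 0.14, adjusted p = 0.0376) and PSMC1 (1.15 ± 0.29, adjusted p = 0.0463), and 0 fell, with a median of -0.007. Of 27 ER chaperone and unfolded protein response genes 1 rose, PDIA3, the disulfide isomerase that works with calnexin and calreticulin on glycoproteins, which stood at 6.09, 6.01 and 5.89 against 5.19, 5.14 and 5.22. The 3 GABARAPL2 libraries were below the lowest of the other 24 (5.37), and the difference was 0.82 ± 0.17 (adjusted p = 0.0156). HSPA5, the ER chaperone BiP, differed by 0.30 ± 0.12 (adjusted p = 0.274).

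HSP90AB1 was called in all 6 fits without 1 library, HSP90AA1 in 2, PDIA3 and PSMB5 in 1 and PSMC1 in 0 (adjusted p up to 0.0773, 0.0769, 0.212 and 0.212). All 5 genes lie on chromosomes 6, 14 and 15, whose genes were higher in the GABARAPL1 knockout as a whole, as described below. With each library centred per chromosome, their differences were 0.34 for HSP90AB1, 0.18 for HSP90AA1, 0.24 for PSMB5, 0.81 for PSMC1 and 0.75 for PDIA3, and 0 of 5 were called (adjusted p = 0.412, 0.679, 0.617, 0.316 and 0.0945).

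In the early secretory pathway, which carries factor VIII, 1 of 30 cargo receptor and COPII genes fell, against 0.947% of all genes, and 0 rose. It was TMED7, a member of the p24 cargo receptor family, at -1.35 ± 0.33 (adjusted p = 0.035), from 4.74, 4.2 and 4.47 against 5.81, 5.45 and 6.21. TMED7 was called in 0 of the 6 fits without 1 library (adjusted p up to 0.188) and was not called with chromosome centring (-1.04, adjusted p = 0.198). Among 38 ATF4 targets 1 fell, XPOT, which exports tRNA from the nucleus (-1.70 ± 0.34, adjusted p = 0.0115), and 0 rose. XPOT was called in 3 of the 6 fits (adjusted p up to 0.0707).

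Other lists gave few calls. In the cytosolic ribosome 1 of 74 genes rose, RPS10 (0.47 ± 0.11), against 0.682% of all genes called higher. In that list 0 fell, and the median was -0.0787. RPS10 lies on chromosome 6 and was called in 1 of the 6 fits without 1 library (adjusted p up to 0.144). With chromosome centring it differed by 0.18 (adjusted p = 0.549). Of the 74 genes 28 had non-overlapping lower libraries (37.8%, against 19.2% of all genes) and 10 had higher ones (against 14.5%). Of 23 p53 targets, 32 DNA replication genes and 26 G2 and mitosis genes 0 were called, with medians of -0.273, -0.0993 and 0.01. Of 15 hypoxia genes, 11 interferon response genes and 34 matrix and adhesion genes 0 were called, with medians of -0.209, -0.274 and -0.0846. Over all genes 1.63% were called. SPARC, a secreted matrix protein, had 31 reads in the GABARAPL1 knockout and 4 in the GABARAPL2 knockout and was not called (3.52 ± 0.95, adjusted p = 0.0595). DSP, the desmosomal plaque protein desmoplakin, stood at 9.48, 9.39 and 9.55 against 8.08, 8.24 and 8.08. All GABARAPL2 libraries were below the other 24 (lowest 8.59), and the difference of 1.34 ± 0.14 (adjusted p = 6.67e-06) was called in all 6 fits without 1 library and with chromosome centring (1.04, adjusted p = 0.0032).

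Cell type markers gave the following levels. HEK293 cells are known to express neuronal genes beside kidney ones. Of 7 tested neuronal and adrenal markers 2 rose and 0 fell, against 0.682% and 0.947% of all genes. The 2 were STMN2 and NEFM, a neurofilament protein (0.57 ± 0.11, adjusted p = 0.00652). The 7 markers had a median of -0.0704, with 3 higher and 4 lower. Non-overlapping libraries were higher for 2 (against 14.5% of all genes) and lower for 2 (28.6%, against 19.2%). The summed level of the 10 of 21 neuronal markers in the table was 5660 to 6200 CPM (reads scaled to a common library total) in the GABARAPL1 knockout, 4540 to 4660 in the GABARAPL2 knockout and 4570 to 7070 in the 18 other knockout libraries. Epithelial and kidney tubule markers (11 of 23 in the table) summed to 112 to 157 and 132 to 139. Fibroblast markers (4 of 13) summed to 42.7 to 66.1 and 37.1 to 42.0, and blood cell markers (8 of 14) to 4.54 to 68.6 and 9.62 to 60.2. No marker in the table was at 0 in all 6 libraries, and 0 of the 6 epithelial, 2 fibroblast and 3 blood cell markers tested were called. The part of the neuronal markers in the other differences was not tested.

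Called genes gathered on some chromosomes. On chromosome 1 the median difference was -0.324 over 1123 genes. Of these, 75.6% were lower in the GABARAPL1 knockout, against 53.4% of all genes. There 25 were called lower and 2 higher (2.4% called, against 1.63% of all genes). Chromosome 6 went the other way, with a median of 0.313 over 563 genes and 26 called higher and 0 lower (4.62%). Chromosome 14 (0.321, 376 genes, 9 higher and 2 lower, 2.93%) and chromosome 15 (0.214, 398 genes, 7 higher and 1 lower, 2.01%) were also higher. Chromosomes 12 (13 higher and 14 lower, 4.5%) and 16 (3 higher and 14 lower, 3.28%) had called shares above those of chromosomes 1, 14 and 15. Their medians were 0.0556 and -0.0797. Chromosomes 1, 6, 14 and 15, which lay more than 0.2 from the median of all genes, held 21.8% of the genes tested and 72 of the 184 called (39.1%). In each library the median level of a chromosome is given against the 6 other knockouts and relative to all genes. It was -0.199, -0.236 and -0.206 for chromosome 1 in the GABARAPL1 knockout, against 0.067, 0.061 and 0.047 in the GABARAPL2 knockout. For chromosome 6 it was 0.116, 0.029 and 0.106 against -0.245, -0.251 and -0.311, for chromosome 14 0.108, 0.141 and 0.113 against -0.281, -0.215 and -0.237, and for chromosome 15 -0.001, 0.006 and 0.023 against -0.267, -0.2 and -0.231. Of these 2 lines, the GABARAPL1 knockout was thus farther from 0 on chromosome 1, and the GABARAPL2 knockout on chromosomes 6, 14 and 15. After each library was centred per chromosome, a step chosen after the data were seen, 97 genes were called, 81 of them among the 184.

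**Figure D4:**
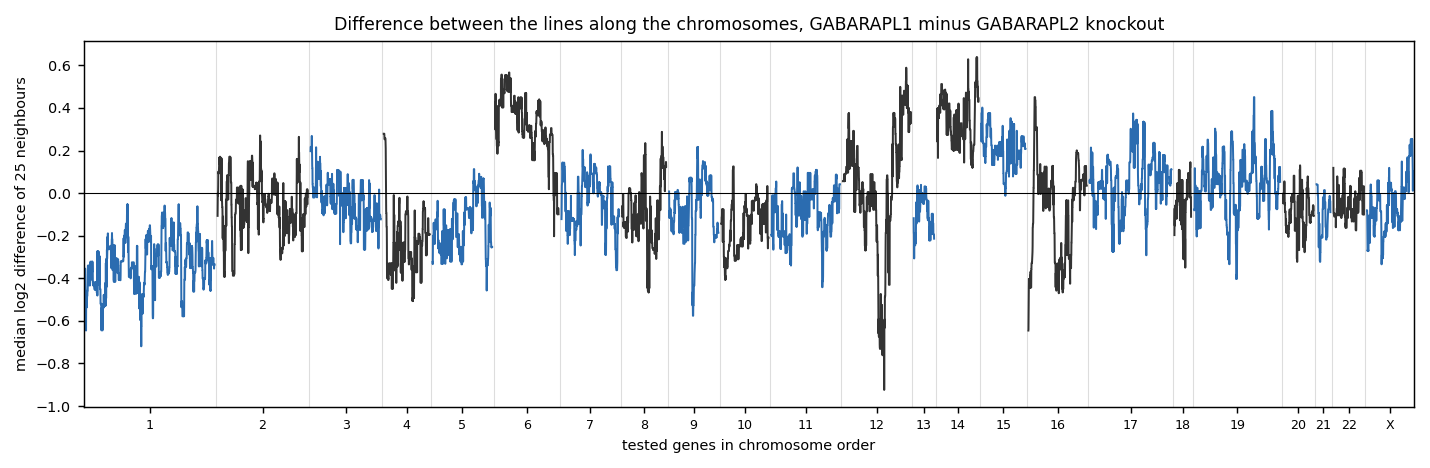
Median log2 difference between the lines in windows of 25 neighbouring tested genes (vertical axis, GABARAPL1 minus GABARAPL2 knockout), in chromosome order (horizontal axis). Windows on chromosome 1 and on chromosome 14 all lie on the same side of 0, below and above it respectively, and windows on chromosomes 6 and 15 lie mostly above it.

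Windows of 25 neighbouring genes gave 14 stretches in which at least 1 window had a median difference of 0.5 or more in either direction. The shifts were not limited to these stretches, and chromosome 15 held none of them. These stretches were chosen by the same differences and are described without a test. They held 677 of the 11295 genes tested and 42 of the 184 called genes. Over all genes, 53.4% were lower in the GABARAPL1 knockout and 46.6% higher, with 0.947% called lower and 0.682% called higher. The genes named in the stretches, other than TUBB, RHBDF1 and members of a list, were chosen after their values were seen. On chromosome 12, from INHBE to CEP290 (57452323 to 88142216), 64 of 80 genes were lower in the GABARAPL1 knockout, with a median of -0.592 and 11 called. The median level in each library was -0.113, -0.189 and -0.163 in the GABARAPL1 knockout and 0.322, 0.295 and 0.371 in the GABARAPL2 knockout, so the latter lay at or above the top of the range of the 18 other knockout libraries (-0.248 to 0.295). The called genes there included NAP1L1, a histone chaperone (-0.93 ± 0.16), OSBPL8, a lipid transfer protein (-1.05 ± 0.18), TBK1, a kinase that phosphorylates autophagy receptors (-1.73 ± 0.42), and XPOT and DTX3 named above. TBK1 stood at 0.45, -0.75 and 0.06 against 1.51, 1.77 and 1.69, and it was called in 1 of the 6 fits without 1 library (adjusted p up to 0.225), while NAP1L1 and OSBPL8 were called in all 6.

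The start of chromosome 16, from POLR3K to RPUSD1 (46407 to 788397), held 27 genes, of which 24 were lower in the GABARAPL1 knockout, with a median of -0.64 and 8 called. Here the GABARAPL1 libraries stood at -0.845, -0.856 and -0.621, below all 18 other knockout libraries (-0.443 to 0.226), and the GABARAPL2 libraries at 0.087, -0.021 and -0.109. RHBDF1 lies in this stretch, between SNRNP25, a spliceosome component (-2.26 ± 0.26, adjusted p = 1.56e-05), and NPRL3, a subunit of the GATOR1 complex that restrains mTORC1 (-2.18 ± 0.52, adjusted p = 0.0349). AXIN1, a scaffold of the beta-catenin destruction complex, differed by -2.48 ± 0.58 (adjusted p = 0.03) and NME4, a mitochondrial nucleoside diphosphate kinase, by -1.42 ± 0.22 (adjusted p = 0.00118). Against the 6 other knockouts SNRNP25, AXIN1 and NME4 differed in the GABARAPL1 knockout by -1.90, -2.19 and -1.35 (adjusted p = 5.34e-06, 0.0291 and 0.000114) and by 0.37, 0.28 and 0.07 in the GABARAPL2 knockout. In the 6 fits without 1 library SNRNP25 and NME4 were called in all, AXIN1 in 1 and NPRL3 in 0 (adjusted p up to 0.225 and 0.128). NPRL3 was not called with chromosome centring (-2.09, adjusted p = 0.0629).

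On chromosome 6, from RP3-467D16.3 to NOTCH4 (16259101 to 32224067), 91 of 108 genes were higher, with a median of 0.485 and 10 called. The GABARAPL2 libraries stood at -0.515, -0.48 and -0.515, below the other 18 knockout libraries (-0.429 to 0.16), and the GABARAPL1 libraries at 0.063, 0.08 and 0.036. The MCFD2 knockout was nearest to the GABARAPL2 knockout there, with a mean of -0.389. The called genes included TUBB, a beta-tubulin (0.74 ± 0.10, adjusted p = 0.00027), DEK, a chromatin protein (0.56 ± 0.09, adjusted p = 0.000908), the histone genes HIST1H1C (0.84 ± 0.13) and HIST1H4C (0.93 ± 0.21), and ABCF1, a translation factor (1.20 ± 0.22). HIST1H4C was called in 0 of the 6 fits without 1 library (adjusted p up to 0.114) and the others in all 6. With chromosome centring TUBB was called (0.44, adjusted p = 0.048) and DEK, HIST1H1C, HIST1H4C and ABCF1 were not (adjusted p = 0.374, 0.226, 0.296 and 0.129).

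On chromosome 12 another stretch, from SETD1B to SLC15A4 (121804180 to 128823983), ran the other way from the first, with 34 of 41 genes higher, a median of 0.481 and 3 called. The remaining stretches lay on chromosomes 1, 4, 9 and 14. On chromosome 14 the GABARAPL2 knockout had means of -0.312 (from NGDN), -0.367 (from IRF2BPL) and -0.354 (from SETD3). The ATG7 knockout (-0.24, -0.399 and -0.196) and the CALR knockout (-0.276, -0.239 and -0.258) were also below 0 there. The CANX, GABARAP, LMAN1 and MCFD2 knockouts were above 0. Of the 5 on chromosome 1, the one from FBXO42 to STMN1 (16246839 to 25906991) had the lowest median, -0.522, with 55 of 67 genes lower. There the GABARAPL1 libraries stood at -0.226, -0.34 and -0.31 and the GABARAPL2 libraries at 0.171, 0.134 and 0.155. The stretch of chromosome 1 from MTCO2P12 begins with pseudogenes of mitochondrial genes, and its 1 called gene is such a pseudogene. Reads of these may be shared with mitochondrial transcripts, and 0 mitochondrial genes are among the deposited values. The part of these regional shifts in the differences of single genes was not tested beyond the chromosome centring above.

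**Figure D5:**
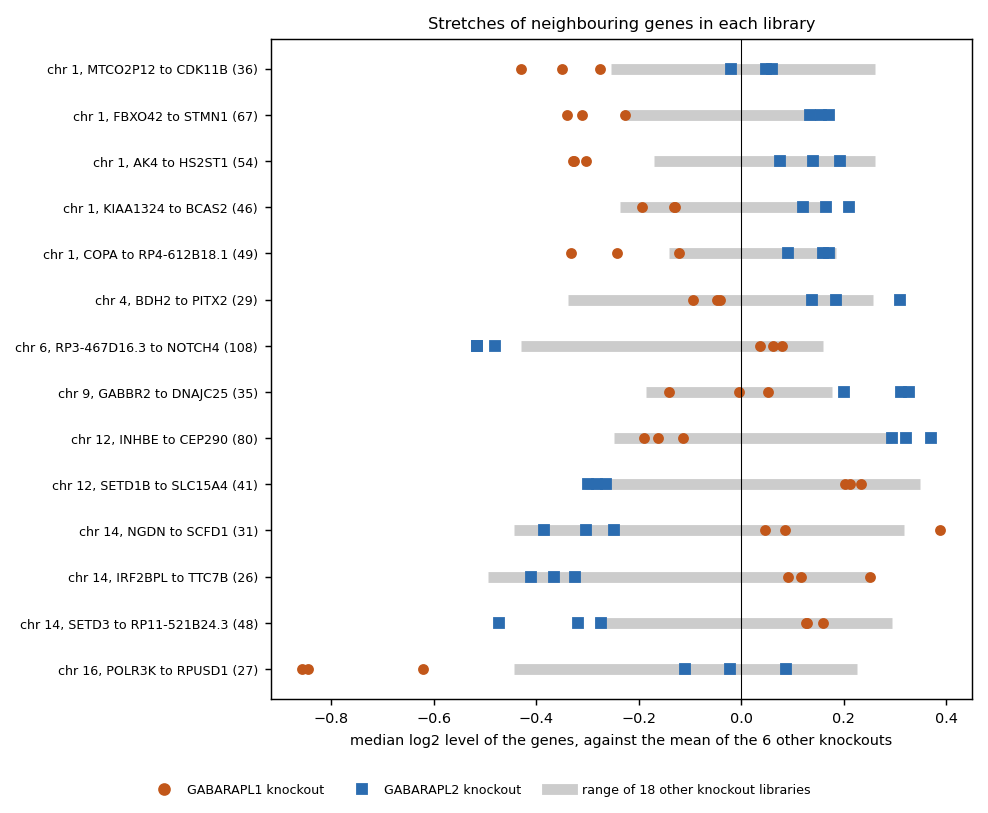
Median log2 level of the genes in each of the 14 stretches (rows, with the number of genes) against the mean of the 6 other knockouts (horizontal axis), for each GABARAPL1 and GABARAPL2 knockout library (points), with a grey bar for the range of the 18 other knockout libraries. All 3 GABARAPL1 libraries lie below the bar at the start of chromosome 16 and in the stretches of chromosome 1 from MTCO2P12 and from AK4, and all 3 GABARAPL2 libraries lie below it on chromosome 6 and above it on chromosome 9.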

How the data were processed

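RNA from 30 libraries was measured by 3' RNA-seq. Per the submitters' processing notes, FastQC, cutadapt, Bowtie and TopHat2 were used with the hg38 build. Their settings, the counting tool and the use of strand are not given in the labels. The authors deposited log2 values for 16975 genes, which step as log2 of (reads + 0.5) over gene length and library size, so whole reads could be recovered for 16922 genes. Of the 503810 values whose printed digits can tell, 100.0% came out whole. From the log2 values, limma 3.58.1 in R 4.3.3 (trend and robust moderation, two-sided, Benjamini-Hochberg adjustment, threshold 0.05) was fitted with 1 coefficient per group to 11295 genes with at least 16 CPM in 3 libraries and 15 reads in all. The fit was tested on simulated data. The design named a log2 fit, or a count model for raw counts, and the log2 fit was used. The comparison, the 28 gene lists and the tests were chosen with earlier results of these data known.

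Named genes were the GABARAP family genes, ATG7 and F8, the 12 called genes with the largest difference each way (no overlap, at least 20 reads in the higher line), up to 4 genes of the smallest adjusted p per list, and 3 per chromosome shifted by more than 0.2. Others are marked as chosen after their values were seen. Replicates differed beyond counting noise (chi-square per degree of freedom 1.87 to 2.2). Gene types and positions came from GENCODE 29 (16938 of 16975 identifiers matched), and promoter sequences from RefSeq GRCh38.p14, where both genes looked up matched. Alternatives covered the scaling, filter, pseudocount, weights, samples fitted, replicate block, each library left out, and, added after seeing the data, chromosome centring and leaving out libraries that stood apart.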

Additional observations from a re-analysis of the deposited data

How the results depend on the processing

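The count of 184 called genes moved by more than 1.5 times under several fits: 605 with only the 6 libraries of the lines, 451 with the 24 knockout libraries, 298 with a pseudocount of 2 reads, 1355 with voom weights on recovered reads (681 higher, 674 lower), 340 without HEK28 replicates 1 and 2, and 97 with chromosome centring. Leaving out 1 library gave 47 to 105. Against the 6 other knockouts, the 36 genes of the GABARAPL1 knockout became 109 with the 24 knockout libraries, 202 with voom weights, 80 without HEK28 replicates 1 and 2, 21 with chromosome centring and 10 to 20 without 1 library. The 476 genes of the GABARAPL2 knockout became 1092, 2934 and 935 in the first 3 of these, 796 with a pseudocount of 2 reads and 102 to 118 without 1 library. For the GABARAPL2 knockout the split also followed the scaling: 301 higher and 175 lower became 288 and 352 with quantile normalization and 237 and 311 with median centring. Without LMAN1 knockout replicate 2 the counts were 219, 38 and 461. The cause of these moves was not tested, apart from the fewer samples in some fits. Of the 68 called genes named in the text, 28 were called in every alternative that tested them, of which 19 in all 19 and the rest in all but the stricter filter, which left them out. Of the 68, 33 were called in all 6 fits without 1 library and 45 with chromosome centring, and 0 of 68 changed sign. GABARAP, not called, changed sign with quantile normalization (0.0263), median centring (0.0134) and without GABARAPL1 knockout replicate 3 (0.25) or GABARAPL2 knockout replicate 3 (0.17), with a range of -0.40 to 0.25 over the fits without 1 library. The same replicate numbers did not pair the libraries (correlations of deviations 0.0374, -0.0183 and -0.0288), and a fit with a replicate block called 157 genes, 149 of them among the 184, and 31 and 467 against the 6 other knockouts. Depth limits the low genes most: 440739 reads in GABARAPL1 knockout replicate 2 left 1962 genes at 0 reads, against 73 in GABARAPL2 knockout replicate 1.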
